A study of Mus musculus with 8 samples.

Results

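H3K27me3 is the trimethylation of lysine 27 on histone H3, the mark that Polycomb repressive complex 2 (PRC2) writes on chromatin. In differentiated cells it usually lies over silent developmental genes, either as compact blocks around gene starts or as broad domains that span whole gene clusters. Reader proteins of the Polycomb group bind the mark and help to keep such genes off.

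The regions described here are compact stretches in which each of 5 mouse chromatin immunoprecipitation sequencing libraries had at least 1 H3K27me3 peak. Peaks of the 5 lists were pooled, peaks that overlapped or touched were merged, and a merged region was kept if it held a peak from every library and was narrower than 10000 bp. This gave 905 narrow shared regions out of 99646 merged regions (0.908%). A further 404 regions with a peak in every library were at least 10000 bp wide and are called broad shared regions below. The regions were thus chosen by the measured peak positions of all 5 libraries, so the presence of a peak in each library and the width limit are conditions and not results.

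The libraries came from 2 stages of a glioma model. AstroEGFR cells (replicates 1 and 3) were C57BL/6 astrocytes from the cerebral cortex at postnatal day 5, deficient for p16/p19 (Ink4a/Arf) and infected with a retroviral vector for the constitutively active human receptor EGFRvIII. The PT libraries (replicates 1, 3 and 4) came from cultured glioma propagating cells, grown from tumours that such C57BL/6 astrocytes formed in CD1 Nude mice, so the Ink4a/Arf loss and the receptor are common to both groups. Per the study, astrocytes were grown in medium with fetal bovine serum. The glioma propagating cells were grown on laminin in neurobasal medium with added growth factors. Stage and culture medium therefore cannot be told apart here. All cells were below passage 10, a PT culture was started from a piece of one dissected tumour, and the peak lists offer no check of cell identity. The design asks whether the mark is redistributed between the stages. Read depth is unknown, and without gene annotation or sequence of the build of the lists (mm9) no gene is named and no sequence is shown. Positions are those of mm9 and count from 1.

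The lists differed in length and in kind, and AstroEGFR 3 stood apart. They held from 3722 peaks (AstroEGFR 3) to 66279 peaks (PT 4). AstroEGFR 3 and PT 3 held 0 peaks on unplaced sequences, against 179 to 236 in the other lists, and both groups have a library of each kind. AstroEGFR 3 decided membership: 6254 narrow regions met the rule when that library was not required, and 1155 did when AstroEGFR 1 was not required, 1020 without PT 1, 1083 without PT 3 and 1016 without PT 4.

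The narrow shared regions made up very different parts of the lists. They took in 28.9% of the peaks of AstroEGFR 3 (1075 of 3722, Wilson 95% CI 27.4 to 30.4, counting error only). The share was 4.85% in AstroEGFR 1 and 4.58% in PT 3. In PT 1 and PT 4 it was 2.49% and 2.39%. As every region had to hold a peak of each list, a short list gives a large share by the rule itself, and these shares are a description. The median peak inside them was 1430 and 796 bp long in AstroEGFR 1 and 3, respectively, and 1761 bp, 985 bp and 1823 bp in PT 1, 3 and 4. Over the whole lists the medians were 1031, 764, 808, 684 and 792 bp. Peaks in narrow shared regions were longer than the median of their own list in all 5 libraries, least so in AstroEGFR 3; merged regions that hold many peaks are wide by construction.

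The median width of a narrow shared region was 5228 bp, with quartiles of 3416 and 7343 bp. The narrowest spanned 848 bp at chr4:28103795-28104642. Just inside the width limit lay chr19:45366011-45376007 (9997 bp), chr5:75468066-75478050 (9985 bp) and chr6:29450604-29460580 (9977 bp). Just outside it lay chr12:74701369-74711368 (10000 bp), chr13:99304434-99314448 (10015 bp) and chr4:63400435-63410481 (10047 bp). AstroEGFR 3 peaks covered from 6.29% to 17.6% of the first 3 and from 6.27% to 15.9% of the other 3, and PT 1 peaks covered from 96.0% to 98.1% and from 55.6% to 97.6%.

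A peak from every library did not mean that the same bases were marked in every library. In 650 of the 905 regions (71.8%) some bases lay inside peaks of all 5 libraries, and in the other 255 (28.2%) none did, so that those regions were held together by a chain of overlapping peaks. Where common bases existed they measured 658 bp at the median (quartiles 458 and 921 bp), or 12.9% of the region, and in 492 regions they formed a single piece. Without AstroEGFR 3, 831 of the 905 regions had bases common to the remaining 4 libraries. Without AstroEGFR 1 it was 738, without PT 1, PT 3 or PT 4 it was 673, 726 or 665. Regions with and without common bases had similar widths (medians of 5275 and 5045 bp). Of the broad shared regions, 88.1% had bases common to all 5 libraries.

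The share of a narrow shared region that lay inside peaks varied widely among libraries of the same stage. The median covered share was 68.1% and 19.2% in AstroEGFR 1 and 3 and 88.2%, 52.7% and 87.9% in PT 1, 3 and 4. PT 1 and PT 4 were alike and high, AstroEGFR 1 lay above PT 3, and AstroEGFR 3 was the lowest. AstroEGFR 3 had the smallest covered share of the 5 in 691 regions (76.4%), PT 3 in 119 and AstroEGFR 1 in 47. PT 1 had the largest in 349 regions and PT 4 in 332, ties counted in each library that held one.

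**Figure D1:**
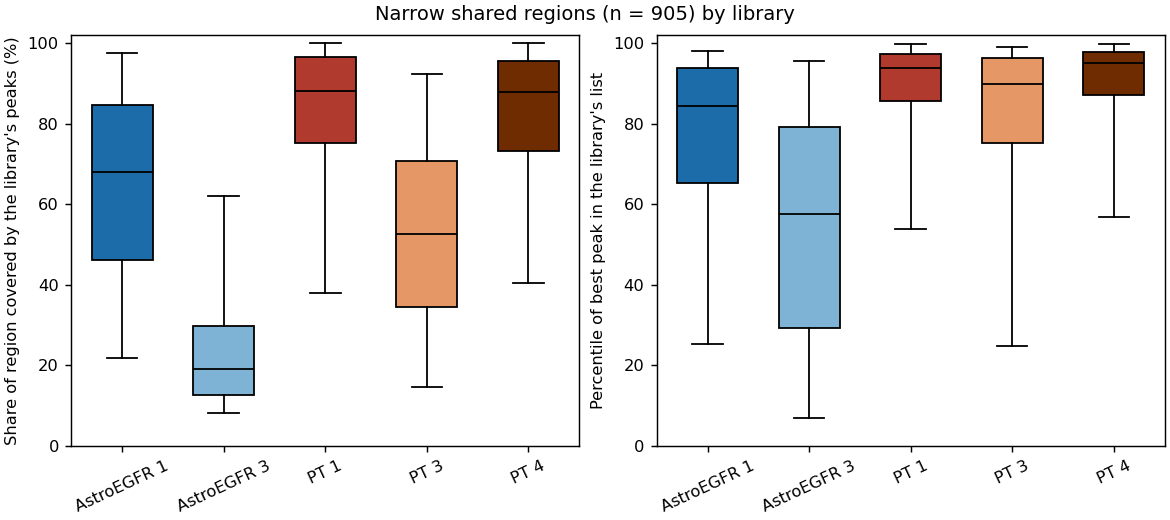
Covered share (left, in %) and percentile of the best peak score within the library's own list (right) for the 905 narrow shared regions in each of the 5 libraries. Boxes are quartiles, lines medians and whiskers the 5th and 95th percentiles. AstroEGFR 3 has the lowest median in both panels (19.2% and 57.7), and PT 1 and PT 4 have the highest.

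Averaged over libraries, the median covered share was 76.3% ± 20.4 (SD, n = 3) in PT and 43.6% ± 34.6 (SD, n = 2) in AstroEGFR, a difference of 32.6 percentage points. AstroEGFR 1 lay above PT 3, so the groups overlapped. Covered share and width come from the same peak positions that chose the regions, and the difference is given as a description with no test. The lists that held peaks on unplaced sequences exceeded those that did not by more, 45.5 points. Within the lists that held such peaks, PT 1 and PT 4 exceeded AstroEGFR 1 by 20.1 and 19.8 points, and within those that did not, PT 3 exceeded AstroEGFR 3 by 33.5 points. When AstroEGFR 3 was left out of the rule and of the comparison, the difference over the resulting 6254 regions was 4.03 points, and without AstroEGFR 1 it was 55.8 points.

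The best peak of a region was also ranked within its own list, since scores of different lists are not on one scale. The median percentile was 84.3 and 57.7 in AstroEGFR 1 and 3 and 93.9, 89.9 and 95.1 in PT 1, 3 and 4. All 3 PT libraries were above both AstroEGFR libraries over the 905 regions. The group means were 93.0 ± 2.76 (SD, n = 3) in PT and 71.0 ± 18.8 (SD, n = 2) in AstroEGFR, a difference of 22.0 percentile points (exact permutation test, two-sided, p = 0.1, the smallest this design allows). The study describes independent astrocyte batches and the tumours that came from them, but the labels do not tie the libraries to these. The p-values therefore measure the spread between these libraries and ignore any pairing. This order was lost in 2 alternatives. With the percentile of the mean score in place of the best, the difference was 18.9 (exact permutation test, p = 0.3). Without AstroEGFR 3, over the 6254 regions that then met the rule, the difference was 7.34 (exact permutation test of 1 library against 3, p = 1.0), so AstroEGFR 1 was no longer set apart from PT. A percentile is relative to the list, and the list of AstroEGFR 3 is short. The share of a list's peaks in these regions was 28.9% in AstroEGFR 3 and 4.85% in AstroEGFR 1. It was 4.58%, 2.49% and 2.39% in PT 3, 1 and 4, so the median percentiles ran in the reverse order. This was not corrected for, and the percentile difference was not recomputed with lists of equal length. The test therefore does not separate stage from the lists. The broad shared regions ranked higher in each library, with medians of 97.7, 75.4, 99.9, 98.0 and 99.9 in the same order, and the difference between the classes was not tested, since the rule separates them by width.

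Region by region, the covered share was larger in all 3 PT libraries than in both AstroEGFR libraries in 232 of the 905 narrow shared regions (25.6%) and smaller in 2 (0.221%). Over all 99646 merged regions the same was seen in 5.24% and 0.0532%, including regions with no peak in some lists. Over the 1309 regions with a peak in every list, which are the 905 narrow and 404 broad shared regions together, it was seen in 21.6% and 0.153%. The 2 regions with the opposite order are described below. The best percentile was higher in all PT libraries in 381 narrow shared regions (42.1%) and lower in 7 (0.773%), against 43.2% and 0.535% of the 1309 regions. Among broad shared regions alone the covered share was larger in all PT libraries in 51 of 404 (12.6%) and the best percentile was higher in 185 (45.8%). Leaving a library out of both the rule and the comparison changed the regions as well as the count for covered share. The count was 265 of 1020 without PT 1, 663 of 1083 without PT 3 and 277 of 1016 without PT 4. Counts where 1 AstroEGFR library remained are not listed with these. They enter only the range over omissions given with the alternatives below, whose upper end is from the omission of AstroEGFR 3. The share over all merged regions was not computed under these omissions, and groups of fewer libraries separate more readily. These counts are therefore descriptions.

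**Figure D2:**
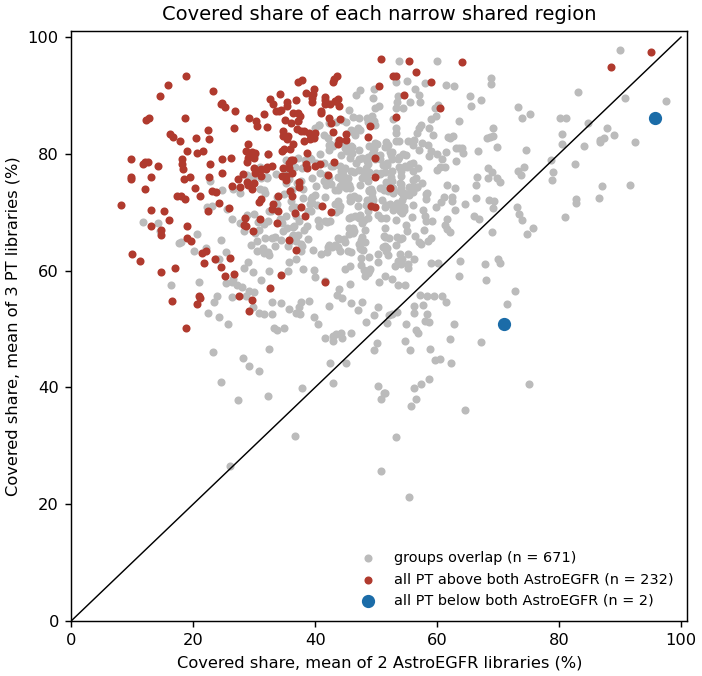
Covered share of each narrow shared region, with the mean of the 2 AstroEGFR libraries on the horizontal axis and the mean of the 3 PT libraries on the vertical axis, both in %. Red points are the 232 regions in which all PT libraries lie above both AstroEGFR libraries, blue points the 2 in which they lie below, and the line marks equality.

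The 5 regions with the largest excess of covered share in PT were picked among those whose groups did not overlap. PT peaks covered most of their length, and AstroEGFR 1 had a single short peak in each. The first was chr12:73953777-73958001, 4225 bp wide. Its peaks covered 15.6% and 16.2% in AstroEGFR 1 and 3 and 91.1%, 88.2% and 96.2% in PT 1, 3 and 4. Both AstroEGFR libraries had 1 weak peak there, and the 3 PT libraries had peaks over most of its length. The group means were 15.9% and 91.9%. The best scores were 72.28 and 79.72 in AstroEGFR 1 and 3, near the lowest score of each list (70.06 and 70.05), and 454.99, 729.33 and 1066.82 in PT 1, PT 3 and PT 4. The region had 430 bp in common to all libraries.

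At chr1:19197045-19205932 (8888 bp), the second of these regions, covered shares were 8.6% and 20.5% in AstroEGFR 1 and 3 and 96.6%, 73.3% and 99.9% in PT 1, PT 3 and PT 4. Its AstroEGFR 1 peak had a score of 70.07, at percentile 0.059 of that list, whereas PT 1 scored 3174.07. No base was common to all libraries, because the peaks of AstroEGFR 1 and AstroEGFR 3 lay side by side inside the longer PT peaks.

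The other 3 regions had the same form. In chr14:67853439-67858550 the covered shares were 13.5% and 24.2% in AstroEGFR 1 and 3 and 98.8%, 94.5% and 86.8% in PT 1, PT 3 and PT 4. In chr7:53627413-53634755 they were 14.1% and 10.3% against 87.5%, 74.2% and 95.4%. In chr5:52950501-52957411 they were 15.8% and 9.8% against 85.7%, 82.3% and 90.1%. The peaks of PT 3 together covered from 73.3% to 94.5% of these 5 regions, although its median over the narrow shared regions was 52.7%. These 5 were picked for their difference, which is therefore a description.

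**Figure D3:**
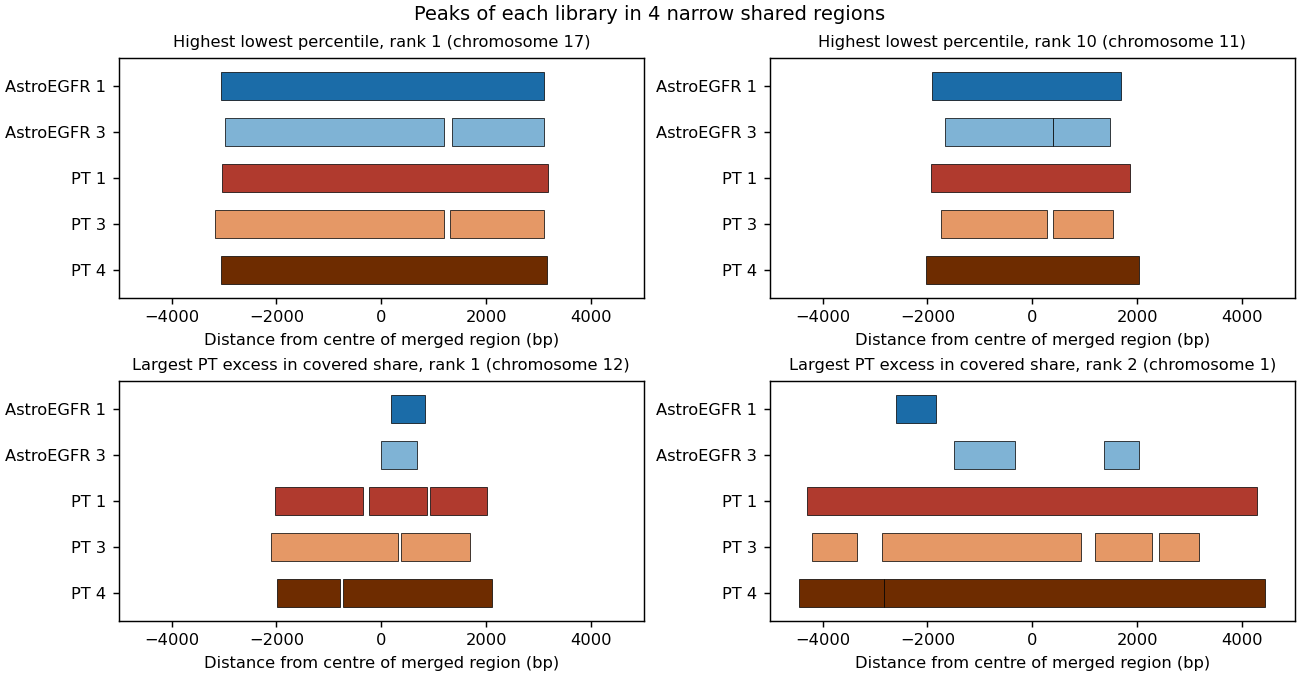
Peaks of each library (bars) in 4 narrow shared regions, drawn to scale by distance in bp from the centre of the merged region. Peaks of all libraries nearly coincide in the region on chromosome 17 and closely so in that on chromosome 11, whereas the regions on chromosomes 12 and 1 hold short AstroEGFR peaks inside a block of PT peaks.

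The 2 regions with a smaller covered share in all PT libraries were short. At chr4:99328355-99330769 (2415 bp) peaks covered 84.6% in AstroEGFR 1 and 57.3% in AstroEGFR 3, and 49.5%, 56.9% and 46.1% in PT 1, PT 3 and PT 4. The gap between AstroEGFR 3 and PT 3 was thus under 1 point. A broad shared region lay 671 bp away. At chr12:68159919-68161037 (1119 bp) the shares were 91.7% and 99.9% in AstroEGFR and 82.0%, 90.8% and 85.3% in PT, again with AstroEGFR 1 and PT 3 less than 1 point apart. The smallest differences in the other direction were 2.33 points at chr17:39979651-39986001, 6.29 points at chr2:181664680-181666212  and 16.5 points at chr6:29591265-29592801.

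Several of the regions that ranked highest in every list differed in form from the rest. The input libraries were not analysed, so whether reads gather at these positions without the antibody was not tested. The 10 narrow shared regions with the highest lowest percentile over the 5 libraries ranged from percentile 97.2 to 99.9. In 4 of them each list gave a score of 3100 or more, a value at which many of the strongest peaks of a list are tied: chr17:39979651-39986001, chr2:98501898-98504629, chr2:98506229-98507949 and chr9:35112264-35113731. In these 4 the AstroEGFR 3 peaks covered 93.5%, 77.8%, 97.0% and 86.4% of the region, against a median of 19.2% for that library. The lowest covered share of any library there was 65.3%, for PT 3 in the region on chromosome 9. In the first the bases common to all libraries came to 5934 of 6351 bp in all, the largest total of any narrow shared region. The next 2 lie close together on chromosome 2, and another narrow shared region, chr2:98504644-98505546 (903 bp), lies between them with scores of 3100 and 689.35 in AstroEGFR 1 and 3 and 3100, 756.93 and 3100 in PT 1, 3 and 4.

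The other 6 of the 10 were chr17:13743053-13746504, chr15:74915553-74917961, chr6:103598514-103599760, chr15:76345809-76352753, chr1:89045851-89055412 and chr11:88828690-88832747. The first 3 of these continued the pattern of high scores in every list. At chr17:13743053-13746504 the scores were 3087.54 and 2227.15 in AstroEGFR 1 and 3 and 3100, 2437.43 and 3100 in PT 1, 3 and 4, and covered shares lay between 83.3% and 95.4%. At chr15:74915553-74917961 AstroEGFR 1 scored 2410.59 and the other 4 libraries 3100. At chr6:103598514-103599760 AstroEGFR 1, PT 1 and PT 4 scored 3100, and AstroEGFR 3 and PT 3 scored 1196.94 and 1047.59, so the libraries without peaks on unplaced sequences were the lower ones. In the last 3 the AstroEGFR 3 score was below 1000. At chr15:76345809-76352753 the score was 501.42 in AstroEGFR 3, 1803.46 in AstroEGFR 1, 1948.90 in PT 3 and 3100 in PT 1 and PT 4. At chr1:89045851-89055412 the same order held, from 448.32 in AstroEGFR 3 to 3100 in PT 1 and PT 4. At chr11:88828690-88832747 the scores were 403.61 in AstroEGFR 3, 1967.92 in AstroEGFR 1, 2421.30 in PT 3 and 3100 in PT 1 and PT 4, and 3041 of 4058 bp were common to all libraries.

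A score of at least 1000 in AstroEGFR 3, a limit chosen after the values were seen, was reached in 14 narrow shared regions. Their median width was 2005 bp, against 5279 bp in the other 891, and all 14 had bases common to the 5 libraries. In these 14 the covered share had medians of 88.7% and 86.1% in AstroEGFR 1 and 3 and 84.0%, 79.0% and 86.3% in PT 1, 3 and 4. In the other 891 they were 67.5%, 18.9%, 88.4%, 52.4% and 87.9%. Of the 14, 1 lay within 100 kb of a broad shared region, against 221 of the other 891, and this was not tested. The 3 input libraries were not analysed here, and whether reads gather at these positions without the antibody was not tested. Leaving the 14 out changed no group comparison: the difference between stages was 33.0 points in covered share and 22.5 in percentile.

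Most narrow shared regions held no score of 3100 or more. Of the 905 regions, 703 (77.7%) had no list with such a score, 86 had 1 such list and 105 had 2. Another 5 had 3 such lists, 2 had 4 and 4 had all 5. The median width was 4593 bp where no list reached this score, 8105 bp where 2 did and 2226.5 bp where all 5 did. The share over all merged regions was not counted. The 95th percentile of the best score was 3100 in PT 1 and PT 4 over the narrow shared regions. Over all merged regions with a peak of the library it was 1510.88 in PT 1 and 1315.22 in PT 4. In broad shared regions the lower quartile was already 3100 in both.

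Covered length scaled with the width of the region in 4 libraries and little in AstroEGFR 3. From regions of at most 2000 bp (n = 65) to regions of 8000 to 10000 bp (n = 156), the median length in peaks went from 1077 to 8255.5 bp in PT 1, from 993 to 8299.5 bp in PT 4, from 993 to 6650 bp in AstroEGFR 1 and from 855 to 4292 bp in PT 3. In AstroEGFR 3 it went from 736 to 999 bp. The covered share of AstroEGFR 3 went from 56.9% to 11.4%. The best percentile of AstroEGFR 3 did not follow width, with medians of 67.9, 52.3, 52.1, 59.9 and 67.2 over the 5 width classes, whereas that of AstroEGFR 1 went from 67.2 to 94.5. Widths follow from the peaks themselves, so these values are descriptions.

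**Figure D4:**
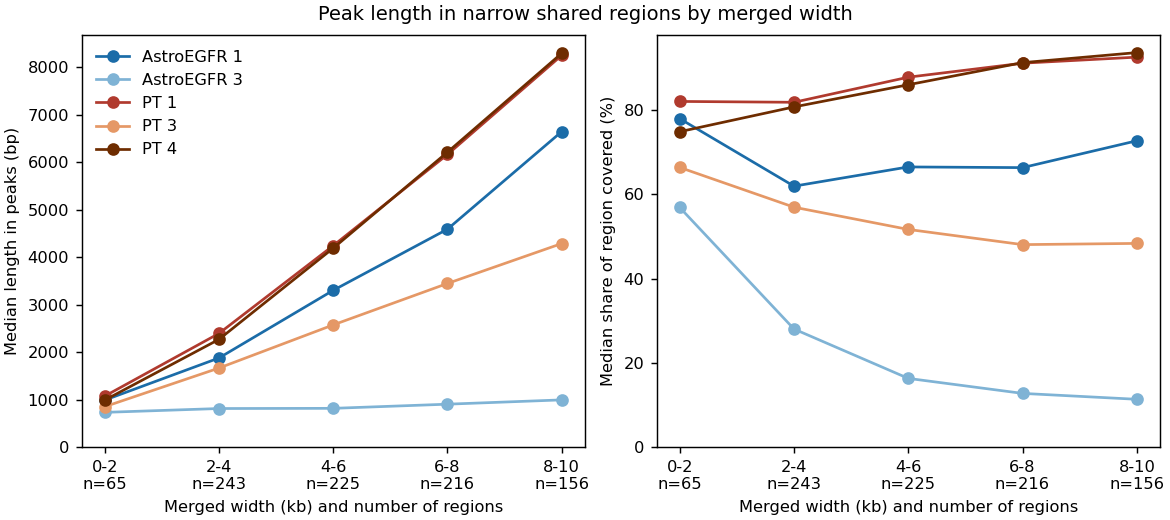
Median length in peaks (left, bp) and median covered share (right, %) of the narrow shared regions in 5 classes of merged width, by library, with the number of regions under each class. Lengths climb with width in 4 libraries, and AstroEGFR 3 stays between 736 and 999 bp.

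Many regions held several peaks of 1 library. AstroEGFR 3 had a single peak in 768 regions (84.9%), whereas AstroEGFR 1 did in 410 (45.3%), PT 1 in 447 (49.4%), PT 3 in 379 (41.9%) and PT 4 in 466 (51.5%). PT 3 had 3 or more peaks in 265 regions, the most of any library. The gaps between peaks of 1 library in a region were short, with medians of 289 bp and 708.5 bp in AstroEGFR 1 and 3 and 199.5 bp, 374 bp and 207 bp in PT 1, 3 and 4. Gaps below 1000 bp made up 95.6% of those in PT 1 and 60.0% of those in AstroEGFR 3.

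The position of the strongest AstroEGFR 3 peak was compared with the peaks of the other libraries. The strongest AstroEGFR 3 peak of a region overlapped a peak of PT 4 in 95.5% of the 905 regions, of PT 1 in 94.3%, of PT 3 in 87.4% and of AstroEGFR 1 in 84.2%. Where the other library had at least 2 peaks to choose from, it overlapped the strongest of them in 311 of 439 regions in PT 4 (70.8%), 324 of 458 in PT 1 (70.7%), 337 of 526 in PT 3 (64.1%) and 310 of 495 in AstroEGFR 1 (62.6%). The length of the peaks was not corrected for.

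Outer edges agreed best between PT 1 and PT 4, whose outermost peak ends differed by medians of 171 bp on the left and 183 bp on the right. AstroEGFR 1 differed from PT 1 by 347 and 391 bp and from PT 4 by 356 and 374 bp. PT 3 differed from PT 1 by 601 and 666 bp and from AstroEGFR 1 by 682 and 688 bp. AstroEGFR 3 differed from AstroEGFR 1 by 1198 and 1298 bp and was nearest to PT 3, at 802 and 912 bp. The outline of AstroEGFR 1 was thus nearer to PT 1 and PT 4 than that of PT 3 was.

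The order of the regions by best score was shared to a varying degree. Spearman's rho over the 905 regions was 0.83 between PT 1 and PT 4, 0.54 between AstroEGFR 1 and PT 1 and 0.52 between AstroEGFR 1 and PT 4. PT 3 had a rho of 0.31 with PT 1, 0.36 with PT 4 and 0.22 with AstroEGFR 1. AstroEGFR 3 had 0.10 with AstroEGFR 1, 0.11 with PT 1, 0.18 with PT 4 and 0.30 with PT 3, its highest value. All pairs share the width of the region, and regions are not independent samples, so no p is given.

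Narrow shared regions were unevenly spread over the chromosomes. Chromosome 2 held 116 of them (12.8%), chromosome 12 held 88 (9.72%), chromosome 11 held 73 (8.07%) and chromosome X held 5 (0.552%), and none lay on an unplaced sequence. Of all 99646 merged regions, chromosome 2 held 6.97%, chromosome 12 held 3.94%, chromosome 11 held 7.49% and chromosome X held 0.429%. Chromosome 12 had the highest density, 7.29 narrow shared regions per 10 Mb, followed by 6.38 on chromosome 2. In the AstroEGFR 3 list 13.7% of peaks were on chromosome 12, and in the remaining 4 lists from 3.40% to 4.42%. When AstroEGFR 3 was not required, chromosome 12 held 3.82% of the 6254 narrow regions, chromosome 2 held 8.70% and chromosome 10 held 14.5%. Chromosome 10 held 4.42% of the 905 regions and 2.93% of the peaks of AstroEGFR 3. The distribution over chromosomes 10 and 12 moved with that of the AstroEGFR 3 list. On chromosome 12 the covered share had medians of 75.3% and 24.4% in AstroEGFR 1 and 3 and 84.8%, 46.6% and 82.7% in PT 1, 3 and 4, the same order of libraries as over the genome.

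**Figure D5:**
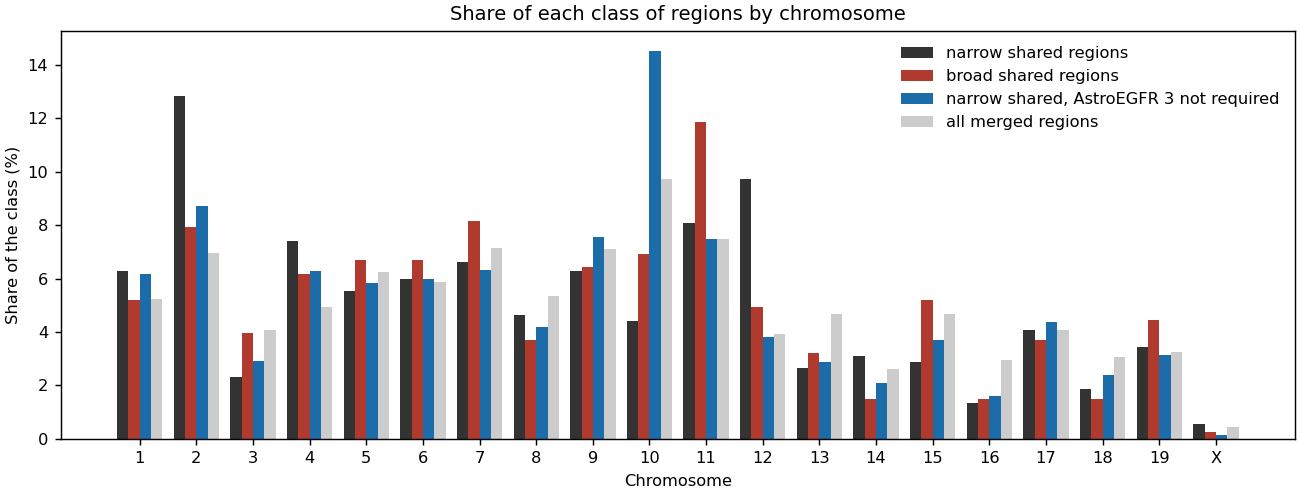
Share (in %) of the narrow shared regions, the broad shared regions, the 6254 narrow regions found when AstroEGFR 3 is not required and all merged regions on each chromosome. Chromosome 12 is high only for the narrow shared regions among these 4 classes (9.72%), and chromosome 10 is highest where AstroEGFR 3 is not required (14.5%).

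Just under 2 in 3 narrow shared regions stood alone, with no other within 50 kb (582 of 905, 64.3%). The other 323 formed 130 runs, of which 91 held 2 regions, 27 held 3, 10 held 4 and 2 held more. The longest run lay at chr12:113435279-113687837, with 14 narrow shared regions in 252559 bp. The 14 regions took in 27 peaks of AstroEGFR 1, 18 of AstroEGFR 3, 35 of PT 1, 31 of PT 3 and 36 of PT 4, and 8 of them had bases common to all libraries. Median covered shares there were 56.8%, 18.1%, 55.2%, 67.8% and 77.3% in the same order. PT 1 was lower and PT 3 higher in this run than over the 905 regions. The second run, at chr4:136435188-136519394, held 6 narrow shared regions in 84207 bp, with median covered shares of 68.5% and 15.5% in AstroEGFR 1 and 3 and 83.6%, 34.8% and 94.2% in PT 1, 3 and 4.

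The nearest broad shared region lay at a median distance of 743367 bp. It was within 10 kb of 99 narrow shared regions (10.9%) and within 100 kb of 222 (24.5%). The narrow regions marked in all lists but AstroEGFR 3, of which there were 5346, had a median distance of 917482 bp, with 5.67% within 10 kb and 19.7% within 100 kb. They were the class most like the narrow shared regions, and they were narrower (median 3409.5 bp against 5228 bp). In them, the median covered share was 65.0% in AstroEGFR 1 and 85.6%, 39.2% and 80.2% in PT 1, 3 and 4, and the best percentile was 72.6, 86.6, 66.0 and 86.0. All 8 values were below those of the narrow shared regions. The lists that define both classes also set these values, and no test of the differences was made.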

How the data were processed

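H3K27me3 peaks of 2 AstroEGFR and 3 PT libraries were analysed. Per the labels, the processing involved Bowtie 0.12.9 and MACS 1.4.1 on mm9; roles, thresholds, input and read numbers are not given in the sources used here. The authors called peaks per library and deposited position and a score per peak. MACS 1.4.1 writes its score as −10 log10 p; the lists name no unit, and scores were ranked within a list only.

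Peaks were merged with Python 3.11.15, pandas 2.3.3 and numpy 2.4.6. The 905 regions were identical to those from bedtools 2.31.1, and 100% of 1240 planted regions fell in their class. Per-library median percentiles were compared by exact permutation, with the library as the unit; the planned test of covered share is not used, since that measure rests on the peak positions of the rule. Figures used matplotlib 3.10.9.

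Named regions were the 10 with the highest lowest percentile, the 5 largest and 5 smallest differences in covered share among regions without overlap, and the 3 on each side of the width limit. Regions and lists were chosen with earlier results of these data known. Alternatives covered score, gap, coverage, width, chromosomes and omitted libraries. Planned counts of gene starts, gene lists, markers and CpG content were not run, since annotation and sequence of mm9 were not used here. The study describes independent astrocyte batches; the labels do not tie PT cultures to them.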

Additional observations from a re-analysis of the deposited data

How the results depend on the processing

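The differences between stages in covered share and in percentile kept their direction under all 16 alternatives each. Only the sign was compared, and most alternatives used the same 5 libraries and many of the same regions. The agreement in sign is therefore no separate check of a stage difference. The complete separation of the groups in percentile (exact permutation p = 0.1) was lost with the percentile of the mean score (18.9, p = 0.3) and without AstroEGFR 3 (p = 1.0). Omission of single libraries gave from 4.03 to 55.8 points in covered share and from 7.34 to 36.6 in percentile, with AstroEGFR 3 omitted in the lowest case and AstroEGFR 1 in the highest. The number of regions ranged from 1016 to 6254 over these omissions, and the number with all PT above AstroEGFR in covered share from 265 to 1250. These 2 counts were 406 and 114 when lists were cut to their best-scoring 50%, and 391 and 107 for peaks scoring 100 or more. They were 519 and 149 when merging across gaps of up to 1000 bp. Where each library covered at least 25% of a region they were 268 and 68, and for widths below 5000 bp 430 and 100. The share over all merged regions was not computed under these settings, so the second counts are descriptions and no result about the narrow shared regions. Lists shortened to an equal number of peaks gave 179 regions, and the differences between stages were not recomputed for them. A limit of 20000 bp and restriction to autosomes left both counts within 1.5 times. So did 2 alternatives chosen after seeing the data, regions with common bases and regions without a high AstroEGFR 3 score. Restriction to autosomes and omission of regions with a high AstroEGFR 3 score remove few regions, so those counts could change little. Chromosome 12 held 3.82% of the regions without AstroEGFR 3 and up to 12.5% otherwise. The named regions kept the sign of their difference wherever it could be computed (45 values for the largest differences, 63 for the smallest). They were picked among regions whose groups did not overlap. Their sign was therefore largely fixed in advance, and this is no separate check.

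Replicate numbers 1 and 3 occur in both groups. The paired (replicate block) difference was 26.8 points in covered share and 20.9 in percentile over 2 pairs. Deviations from the group mean correlated over regions at 0.22 (number 1) and 0.25 (number 3) for covered share. AstroEGFR 1 and PT 4, whose numbers differ, correlated at 0.13. With 2 AstroEGFR libraries their deviations mirror each other, so AstroEGFR 3 gave the same values with the sign turned. The numbers coincide with the presence of peaks on unplaced sequences, and regions are not independent samples, so the pairing is no separate check. Alternatives for gene starts and CpG content were not run. Read depth is unknown, and its part in the short peaks and list of AstroEGFR 3 was not tested.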

Other observations

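The narrow shared regions of chromosome X were singled out after their values were seen. At chrX:166426125-166428725 (2601 bp) the best scores were 1085.36 in AstroEGFR 3 and 2061.12 in PT 3, against 212.80 in AstroEGFR 1, 435.12 in PT 1 and 408.62 in PT 4, and peaks of AstroEGFR 3 and PT 3 covered 80.9% and 100% of it, against 29.5%, 42.2% and 39.1%. AstroEGFR 3 and PT 3, 1 library of each stage, thus stood apart there. Chromosome Y held 0.645% of the peaks of AstroEGFR 3 and 0.0574% of those of PT 3. In AstroEGFR 1, PT 1 and PT 4 it held 0.00588%, 0.00930% and 0.00302%. These are shares of lists of different length, 3722 peaks in AstroEGFR 3 and 40090 in PT 3, so they do not compare numbers of peaks. The cause of the split between libraries was not tested. A second region of chromosome X, chrX:73843576-73844834 (1259 bp), was strong in all 5 lists, with scores of 995.92 and 1504.36 in AstroEGFR 1 and 3 and of 1916.96, 1778.00 and 2090.81 in PT 1, PT 3 and PT 4. AstroEGFR 3 covered at least 70% of 4 of the 5 narrow shared regions on chromosome X, and of 36 of the 905 in all.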
